A study of Drosophila melanogaster with 8 samples.

Results

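Basement membranes are thin sheets of extracellular matrix that line tissues. They are built from a network of type IV collagen, a network of laminin, and the proteoglycan perlecan, and cells hold on to them through integrins, receptors made of an alpha and a beta subunit. In *Drosophila* much of this matrix is secreted by hemocytes, the blood cells, and by the fat body. Here the occupancy of cyclin dependent kinase 9 (CDK9) was described at 10 such genes of 18277 annotated genes: *Col4a1* and *vkg* (the type IV collagen chains), *LanA*, *LanB1* and *LanB2* (the alpha, beta and gamma chains of laminin), *trol* (perlecan), *Ppn* (papilin, a matrix proteoglycan), *SPARC* (a collagen-binding glycoprotein), *mew* (integrin alphaPS1, a laminin receptor subunit) and *mys* (integrin betaPS). A CDK9 peak was counted for a gene when it overlapped the gene body, or lay within 1500 bp of any of its starts, by at least 1 bp. By this rule 20 of 10909 peaks, in 10 of 5531 merged regions, belonged to the 10 genes.

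CDK9 is the kinase of P-TEFb, which phosphorylates RNA polymerase II (Pol II) and its pausing factors and so releases paused Pol II into elongation. It was mapped by ChIP-seq in Kc167 cells, a female embryonic cell line of hemocyte type, collected 3 days after transfection with no RNA (mock) or with RNA against Argonaute2 (siAGO2), with 2 CDK9 libraries and 2 inputs in each group. The comparison asks whether depletion of AGO2 changes CDK9 on chromatin. What is read here are the peaks that the authors called in each CDK9 library alone, and a gene without a listed peak is a gene where no call was made at that depth.

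The 4 lists held between 1707 and 3804 peaks. Reads over an average position of the genome, recovered from the deposited fold and p-value of the peaks and taken as a measure of depth, came to 2.29 and 1.21 for replicates 1 and 2 of mock cells and 0.814 and 0.864 for those of siAGO2 cells, so both siAGO2 libraries were the shallower ones. The lowest number of summit reads of any listed peak was 10, 7, 5 and 6, in the same order. Of 14 genes listed as hemocyte markers 4 had a peak in all 4 libraries, against 0 of 5 neuronal, 1 of 5 muscle, 0 of 5 fat body and 0 of 3 germ line markers, and 7, 4, 3, 0 and 0 of them had a peak in any library. Over all annotated genes the shares were 7.53% in all 4 libraries and 30.1% in any. Over genes of at least 2758 bp they were 14.7% and 46.9%. A peak is not a measure of expression, and the identity of the cells was not tested by these counts. The labels do not say whether replicates were separate cultures. Where a group has a pair of values below, they are those of replicate 1 and then replicate 2, and 4 values in a row give mock cells first.

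CDK9 was found at 8 of the 10 genes in at least 1 library, but at only 3 of them, *trol*, *mys* and *LanA*, in all 4. *Col4a1*, *vkg* and *LanB2* had a peak in 2 libraries, *LanB1* and *SPARC* in 1, and *Ppn* and *mew* in none. Of all annotated genes 7.53% had a peak in all 4 libraries and 30.1% in any. These genes are long, between 2758 and 74968 bp, with a median of 11763 bp against 1646 bp over all genes. Among the 5958 genes at least as long as *SPARC*, the shortest of the 10, the shares were 14.7% and 46.9%. Beyond this lower bound the lengths were not matched to those of the 10 genes. The members number only 10 and were chosen with results of these data known, so their share was not tested.

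**Figure D1:**
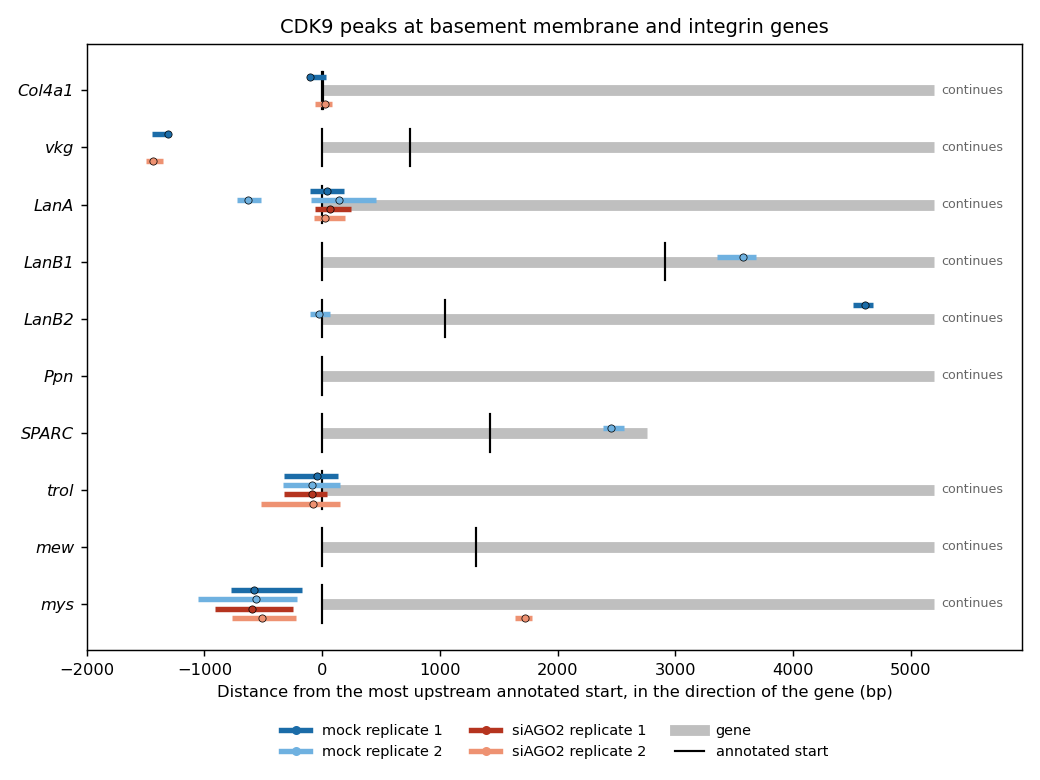
Position of every listed CDK9 peak at the 10 genes, by distance from the most upstream annotated start in the direction of the gene (bp), where coloured bars are peaks of each library with the summit as a dot, grey bars are gene bodies, cut at the right edge where they continue, and black ticks are annotated starts. Peaks of all 4 libraries stack at *trol*, *LanA* and upstream of *mys*, while *Ppn* and *mew* have none.

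Of genes on X 12.4% had a peak in all 4 libraries and of genes on the autosomes 6.70%, and 2 of the 3 X-linked members did, *trol* and *mys*. The strongest region that lay at a start of a member gene was that of *trol* (FBgn0284408; X, 2470460 to 2545427, minus strand). Perlecan is a large heparan sulfate proteoglycan that cross-links the matrix and binds growth factors. The summit held 63 and 57 reads for mock, against 37 and 47 reads for siAGO2 cells. Raw reads were thus lower in both siAGO2 libraries, which were also the shallower ones. Divided by the genome background of the library, the same summits stood at 27.5 and 47.1 in mock cells and at 45.5 and 54.4 in siAGO2 cells, and the ranges of the groups overlapped. Over the 1022 regions called in all 4 libraries the median on this measure was 13.5 and 23.9 for mock, against 23.3 and 22.0 for siAGO2 cells. Mock replicate 1 was thus the lowest library there too. The deposited fold enrichment of *trol* over the local background was 7.58 and 9.40 for mock, against 6.31 and 9.56 for siAGO2 cells. In its own list the peak stood at percentile 96.6, 95.5, 86.5 and 95.5 of −log10 q, where a higher percentile is a more significant peak, with siAGO2 replicate 1 the lowest.

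The peaks at *trol* merged into a region of 673 bp (X, 2545274 to 2545946). The gene has 3 annotated starts, and the peak was at the most upstream of them, from which 23 of 25 transcripts begin. The other starts had no peak within 1500 bp in any library. Summits lay 46, 90, 88 and 75 bp upstream of the start, in intergenic sequence, a range of 44 bp. Over the 1022 regions called in all 4 libraries the median range of summits was 86 bp, and 20.1% of them had a range as narrow or narrower than *trol*. The local background used by the peak caller was also raised at this site, between 3.25 and 6.17 times the genome background of each library, where the median of the 1022 regions lay between 2.36 and 2.78 times.

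The sequence upstream of *trol* is shown because the CDK9 summits of all 4 libraries fall in it. It is the 250 bp before the start (chrX:2545428-2545677, minus strand, dm6, from the RefSeq copy of the assembly as are the sequences further on), read toward the gene, with GAGAG on either strand in capitals. GAGAG is the core of the element bound by GAGA factor, a protein known in *Drosophila* for its part in promoter opening and Pol II pausing.
*trol* upstream: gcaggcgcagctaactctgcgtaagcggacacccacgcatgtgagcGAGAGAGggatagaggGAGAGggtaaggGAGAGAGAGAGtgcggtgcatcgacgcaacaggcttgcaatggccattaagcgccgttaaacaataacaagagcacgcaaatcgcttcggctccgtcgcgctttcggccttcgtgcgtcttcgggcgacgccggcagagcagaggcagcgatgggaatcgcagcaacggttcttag
GAGAG occurred 7 times here, overlapping matches counted, all between positions -204 and -166 from the start, so the summits lie between this cluster and the start. In windows of 300 bp around annotated starts, 250 bp before and 50 bp after, the motif was present at 32.4% of 23697 starts, and 7 or more matches were present at 1.69%. Of the 18 starts of the 10 genes 7 held GAGAG, in 5 genes.

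The region that ranked highest in 3 of the 4 libraries (all but mock replicate 1, where *trol* did) lay upstream of *mys* (FBgn0004657; X, 8061645 to 8070237, plus strand), but its nearest start belongs to another gene. *mys* stands head to head with *fs(1)h*, which encodes a bromodomain protein of the BET family. Of 5 annotated starts of *fs(1)h*, the outermost (X, 8061436) is 209 bp from the start of *mys* and the next (X, 8060974) is 671 bp from it. The summits lay 576 and 561 bp upstream of *mys* for mock, against 594 and 509 bp upstream for siAGO2 cells. Seen from the inner *fs(1)h* start they lay at -95, -110, -77 and -162 bp, in an intron of the transcripts that begin at its outer start. No peak of this region overlapped the body of *mys*, and which of the genes the signal belongs to cannot be told apart from these lists.

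At this region, 881 bp wide (X, 8060590 to 8061470), the summit held 42 and 52 reads for mock, against 37 in each siAGO2 library. Relative to the genome background this was 18.3 and 42.9 for mock, against 45.5 and 42.8 for siAGO2 cells, with mock replicate 1 standing below the other libraries. Fold enrichment at the region upstream of *mys* was 9.10 and 15.7 for mock, against 15.2 and 15.3 for siAGO2 cells. The percentile was 94.5, 97.5, 96.2 and 96.8, the narrowest spread of the 3 regions called in every library. In siAGO2 replicate 1 the peak was the 66th of 1707.

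The sequence between the inner *fs(1)h* start and the outer one is shown because all 4 summits fall in it (chrX:8060993-8061242, plus strand, toward *mys*), with GAGAG on either strand in capitals.
*mys* and *fs(1)h*: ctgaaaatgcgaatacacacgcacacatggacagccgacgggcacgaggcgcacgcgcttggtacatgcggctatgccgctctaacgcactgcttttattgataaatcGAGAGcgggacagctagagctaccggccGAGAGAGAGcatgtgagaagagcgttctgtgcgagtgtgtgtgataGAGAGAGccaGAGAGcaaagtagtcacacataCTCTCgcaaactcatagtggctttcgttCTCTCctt
The motif occurred 9 times, from position -544 to -406 from the start of *mys*. In 301 bp around the highest-ranked summit it occurred 8 times, a number that 12.8% of the 1022 shared regions reached, and 6 times around that of *trol*, which 21.9% reached. Of the shared regions 69.1% held at least 1 GAGAG in such a window, with a median of 2, and of all 5531 regions 46.0% did. Within *mys* itself, a peak was called only in siAGO2 replicate 2, in its intron, 1721 bp past the start (X, 8063285 to 8063431), with 9 summit reads, a fold of 4.49 and percentile 23.2.

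*LanA* (FBgn0002526; 3L, 6203831 to 6218022, minus strand) encodes the laminin alpha chain that carries the main sites for cell adhesion. Its single annotated start had a peak in all 4 libraries, in a region of 565 bp (3L, 6217562 to 6218126). Summits lay 40 and 141 bp downstream of the start for mock, against 71 and 28 bp downstream for siAGO2 cells, in the 5′ untranslated exon. This differs from *trol*, where all 4 summits lay upstream. The range of 113 bp was wider than in 64.0% of shared regions or equal to it.

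*LanA* was the member region whose place in the lists differed most between groups. It stood at percentile 77.0 and 82.9 for mock, against 12.7 and 30.9 for siAGO2 cells, so the groups did not overlap. The median percentile of the 1022 shared regions was also lower in siAGO2 cells, at 82.1 and 85.9 for mock, against 68.2 and 76.0. Fold enrichment at *LanA* was 4.52 and 8.54 for mock, against 3.52 and 4.14 for siAGO2 cells. The summit held 28 and 20 reads for mock, against 14 and 13 reads for siAGO2 cells.

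To compare the order of sites between groups, the −log10 q of the 1022 shared regions was converted within every library to ranks and then to normal scores, on which limma was run with all regions in the fit. At *LanA* the score was -0.249 and -0.199 for mock, against -1.59 and -1.29 for siAGO2 cells. The difference of -1.22 ± 0.36 (SE) did not pass adjustment (limma, adjusted p = 0.669). Over all 1022 regions 0% passed adjustment and 6.36% had an unadjusted p under 0.05, *LanA* among them. The difference at *LanA* was the 18th lowest of the 1022. At *trol* the score differed by -0.10 ± 0.39 (SE) and at the region upstream of *mys* by 0.34 ± 0.37 (SE), with adjusted p of 0.948 and 0.910 in the limma fit. The sign at *trol* rested on single libraries. It was 0.05 without mock replicate 1 and 0.15 without siAGO2 replicate 1.

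Summit reads relative to depth did not separate the groups at *LanA*, unlike its percentile. Summit reads divided by the genome background were 12.2 and 16.5 for mock, against 17.2 and 15.1 for siAGO2 cells, means of 14.4 ± 3.03 and 16.1 ± 1.52 (SD, n = 2), and the groups overlapped. Over the 1022 shared regions the median of this ratio was 13.5 and 23.9 for mock, against 23.3 and 22.0 for siAGO2 cells. Mock replicate 1 was thus low over the shared regions too. On the log2 scale and centred on the median of the shared regions of each library, the difference at *LanA* was -0.15 ± 0.21 (SE; limma, adjusted p = 0.892). It had the same sign as the rank difference. The local background at *LanA* was 5.42, 1.46, 3.26 and 2.38 reads across the 4 libraries, which is 2.36, 1.20, 4.01 and 2.76 times the genome background. The fold, p-value and q-value of a peak are computed against this local background. It was highest relative to depth in the library where *LanA* ranked lowest, and lowest in the library where it ranked highest. The part of depth and of local background in the rank of *LanA* was not tested.

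**Figure D2:**
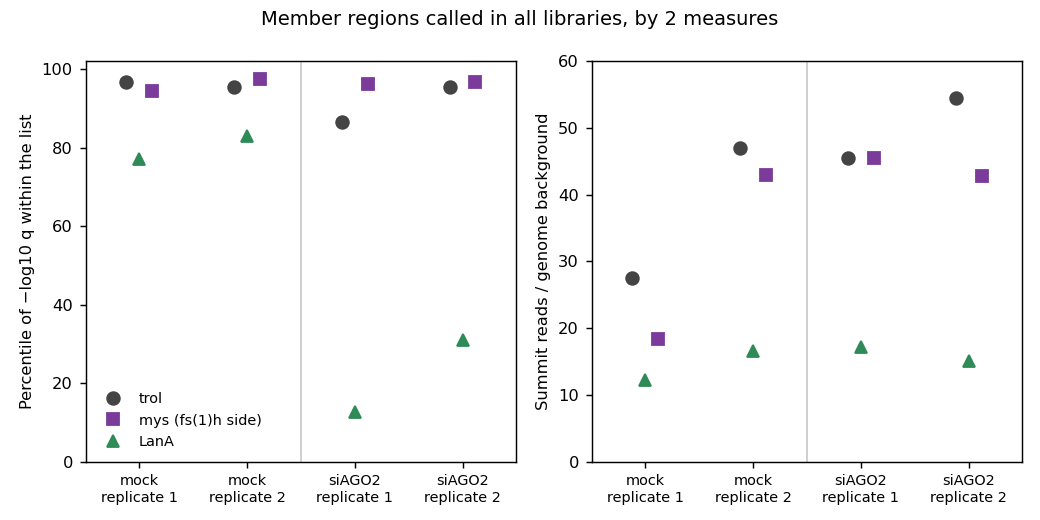
The 3 member regions called in all 4 libraries, 1 point per library with a vertical line between mock and siAGO2, by percentile of −log10 q within the list (left) and by summit reads divided by the genome background (right). *LanA* stands at percentiles 12.7 and 30.9 in siAGO2 cells on the left, below mock, and lies between 12.2 and 17.2 in all libraries on the right.

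The part of the *LanA* region that lies upstream of the start (chr3L:6218023-6218126, minus strand) is shown for comparison with *trol*.
*LanA* upstream: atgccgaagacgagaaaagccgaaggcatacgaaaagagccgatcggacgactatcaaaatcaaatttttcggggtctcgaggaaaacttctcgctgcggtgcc
These 104 bp held no GAGAG on either strand, and 1 match lay in the 301 bp around the highest-ranked summit. The stretch reaches only to -104, short of the positions of the matches at *trol*, -204 to -166. In the window of 300 bp around its start *LanA* had 1 match. In mock replicate 2 a second peak was called further upstream of *LanA*, with its summit at -633 bp from the start (3L, 6218541 to 6218747), 14 summit reads and percentile 57.6. It was not listed in the other libraries.

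The other laminin chains had peaks in mock cells only, and in no case the same region in both mock libraries. Both siAGO2 libraries were shallower. Over all genes the share with a peak was also lower there, at 10.8% and 14.9%, against 18.6% and 23.0% for mock. Whether the missing calls reflect more than this was not tested. At *LanB2* (FBgn0267348; 3L, 9614914 to 9623980, plus strand) the peak of mock replicate 2 lay at the upstream start, with its summit 29 bp before it (3L, 9614808 to 9614978), 15 summit reads, a fold of 4.46 and percentile 44.7. The peak of mock replicate 1 lay in a coding exon 3566 bp downstream of the nearest start (3L, 9619427 to 9619598), with 13 reads, a fold of 2.77 and percentile 2.09 of its list. At *LanB1* (FBgn0261800; 2L, 7811438 to 7820771, plus strand) mock replicate 2 had a peak in a coding exon 656 bp downstream of the internal start (2L, 7814794 to 7815126), with 15 reads, a fold of 3.99 and percentile 33.9. The upstream start of *LanB1* had no peak within 1500 bp in any library. Of the laminin chains, which are assembled as a trimer of 1 chain of each kind, only *LanA* was called in every library. Its peaks held 28 and 20 reads for mock, against 14 and 13 for siAGO2 cells. The latter are in the range of the mock peaks at *LanB1* and *LanB2*. Whether the chains differ beyond the threshold of the calls was not tested.

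The type IV collagen genes *Col4a1* (FBgn0000299; 2L, 5029609 to 5037279, plus strand) and *vkg* (FBgn0016075; 2L, 5012144 to 5028191, minus strand) are transcribed away from each other from starts 1418 bp apart. They shared a single region of 200 bp (2L, 5029492 to 5029691), called in mock replicate 1 and siAGO2 replicate 2. In mock replicate 1 the summit was 107 bp upstream of *Col4a1* and held 13 reads, with a fold of 3.46 and percentile 16.9. In siAGO2 replicate 2 it was 16 bp downstream of the start and held 9 reads, with a fold of 4.90 and percentile 34.1. The calls thus did not follow treatment. Both summits were much nearer to *Col4a1* than to *vkg*, whose start was 1311 and 1441 bp away, and *vkg* counts only through the window of 1500 bp. With a window of 500 bp it had no peak.

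The sequence before the start of *Col4a1* is shown because the only region called at the collagen genes begins in it, with the summit of mock replicate 1 inside and that of siAGO2 replicate 2 just past its end (chr2L:5029492-5029608, plus strand).
*Col4a1* and *vkg*: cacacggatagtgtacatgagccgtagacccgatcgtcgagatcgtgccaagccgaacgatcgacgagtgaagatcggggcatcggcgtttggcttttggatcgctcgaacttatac
It held no GAGAG, and there was none in the 301 bp around the higher-ranked summit either.

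*SPARC* (FBgn0026562; 3R, 26869238 to 26871995, minus strand) had a single peak, in mock replicate 2, over a coding exon 1029 bp downstream of its internal start (3R, 26869427 to 26869608). It held 17 reads, with a fold of 4.26 and percentile 46.2. *Ppn* (FBgn0003137; 3R, 28520665 to 28540324, minus strand) and *mew* (FBgn0004456; X, 13214409 to 13258490, minus strand) had no peak. The nearest listed peak was between 43906 and 117687 bp from *Ppn* and between 29808 and 71221 bp from *mew* in the 4 libraries.

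Over the 10 genes, the 12 peaks of regions called in all 4 libraries held between 13 and 63 summit reads, and the 8 peaks of the other regions between 9 and 17 reads. The latter stood at percentiles from 2.09 to 57.6 and were between 147 and 333 bp wide, against 270 to 841 bp. Of the 18 annotated starts of the genes, 3 had a peak within 1500 bp in all 4 libraries, 10 in any library and 8 in none. The share of all 23697 annotated starts by this rule was not computed, so these counts are not read as high or low. Starts are also not separate units, as those of *Col4a1* and the upstream start of *vkg* count through the same region.

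**Figure D3:**
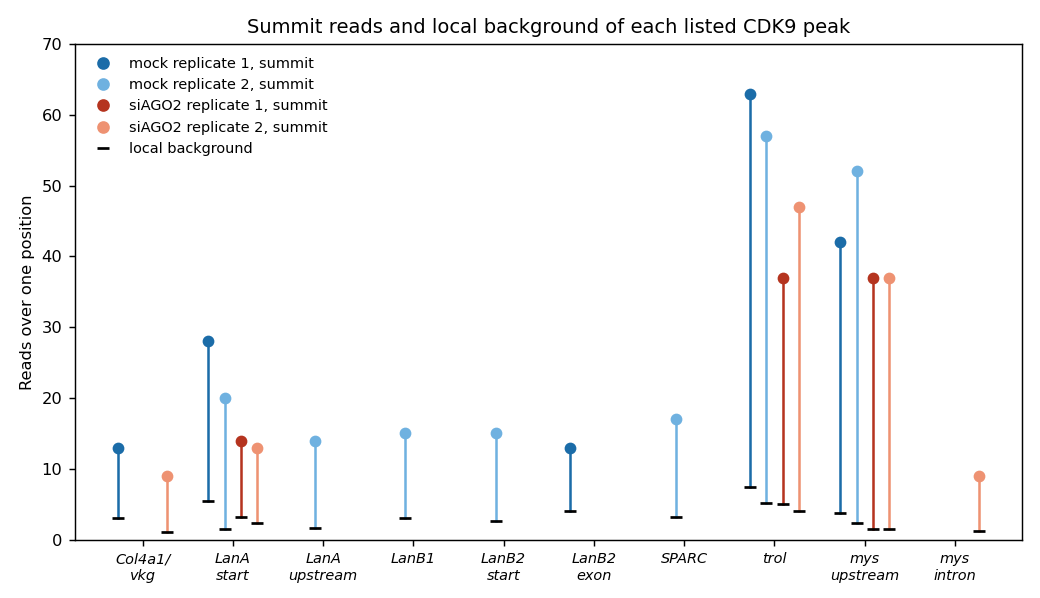
Summit reads (dots) and local background (black dashes) of the 20 listed peaks at the 10 merged regions, in reads over 1 position, by library. Summits reach 37 or more reads at *trol* and upstream of *mys* in every library and 17 or fewer at the regions called in fewer than 4 libraries.

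Next, the number of member genes with a peak was compared between groups. It was 6 in each mock library, and 3 and 5 in siAGO2 replicates 1 and 2. The mean was 6 ± 0 in mock and 4 ± 1.41 (SD, n = 2) in siAGO2 cells, and the groups did not overlap (exact permutation test, two-sided, p = 0.333, the smallest that 2 libraries against 2 can give). Over all genes the share with a peak was 18.6% and 23.0% for mock, against 10.8% and 14.9% for siAGO2 cells, so the list as a whole was shorter in siAGO2 cells too, and among the genes at least as long as *SPARC* it was 31.6%, 36.9%, 19.9% and 25.2%. With the 1707 top peaks of each list, the length of the shortest, the counts were 3 and 3 for mock, against 3 and 5 for siAGO2 cells, and the direction turned (exact permutation test, p = 1.0).

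The number of member peaks was 5 and 7 for mock, against 3 and 5 for siAGO2 cells, and the bases they covered were 1663 and 2778 bp against 1346 and 1780 bp. The groups shared the value of 5 peaks and overlapped in bases (exact permutation test, p = 0.667 for each). From lists shortened in this way both groups had a mean of 3.5 member peaks. *trol*, *mys* and *LanA* were counted in every library, so the genes that made up the difference were those of the weak regions. *LanB2* had a peak in both mock libraries, at different sites, and in no siAGO2 library. Such calls in mock alone held for 2.74% of all genes. This share was not computed among genes at least as long as *SPARC*, where peaks were more frequent.

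**Figure D4:**
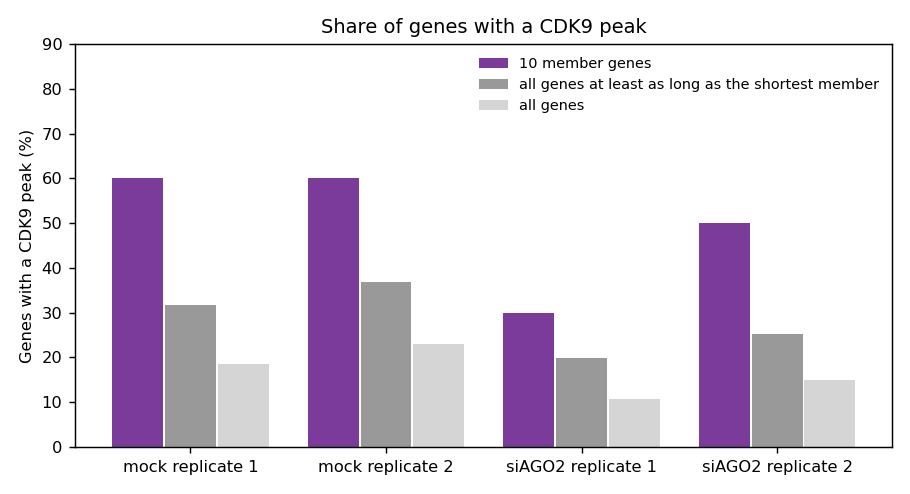
Percent of genes with a CDK9 peak in the body or within 1500 bp of a start, in each library, for the 10 member genes, for all genes at least as long as the shortest member and for all genes. Member shares are 60%, 60%, 30% and 50%, and all 3 shares are lowest in siAGO2 replicate 1.

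Finally, the wider set of matrix and adhesion genes was read in the same way. Of 30 genes, which include other matrix proteins, the other integrin subunits, matrix proteases, enzymes that modify collagen and the proteins that link integrins to actin, 15 had a peak in any library and 6 in all 4 (20%). Over all genes these shares were 30.1% and 7.53%. Among genes at least as long as *SPARC* they were 46.9% and 14.7%, and the counts of the list were near these. Lengths were not matched in this comparison, and genes of the list reach 88775 bp. A peak was listed at 11 and 13 of them for mock, against 8 and 7 for siAGO2 cells, where the share of all genes was also lower in siAGO2 cells (18.6%, 23.0%, 10.8% and 14.9%). *ItgaPS5* and *Pxn* had a peak in both mock libraries and no siAGO2 library, as 2.74% of all genes did. This share was not computed among genes at least as long as *SPARC*. For genes of this wider set, only the most significant peak of the gene in each library is described. At *ItgaPS5* these peaks were nearest to the start of *Rrp4*. At *Pxn* they were different sites, 18626 and 165 bp from its nearest start in mock replicates 1 and 2. The highest of the 6 was *Pax*, which encodes paxillin, an adaptor of integrin adhesions. Its peak held 57, 42, 30 and 31 summit reads across the 4 libraries, at percentiles 94.6, 93.0, 90.9 and 90.5, with summits from 43 bp upstream to 1 bp downstream of the start. *rhea*, which encodes talin, the protein that ties the integrin beta tail to actin, had 18, 30, 20 and 14 reads at percentiles 68.4, 92.6, 83.5 and 74.1.

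*Mmp1*, a secreted matrix metalloprotease, had 29, 27, 21 and 19 reads at percentiles 78.9, 86.4, 72.4 and 78.9. The glypican gene *dlp* had a peak at its start at percentiles 91.3, 26.7, 56.0 and 77.8. At *dally*, the other glypican gene, the most significant peaks of 3 libraries lay at 4, -120 and -96 bp from a start, at percentiles 16.9, 43.6 and 44.0. That of mock replicate 2 was another site, 22127 bp from the nearest *dally* start, and a weaker peak at a start is not excluded. *Crag*, which acts in the secretion of basement membrane proteins, had its most significant peaks at percentiles 29.8, 47.5, 45.6 and 26.7. They were not a single site, being nearest to the start of *CG12659* in 3 libraries and to that of a different neighbour in mock replicate 1, and in none to a start of *Crag*. *Vinc* (vinculin) had a peak in 3 libraries. None was listed at *Ndg* (nidogen), *Tig* (tiggrin), *wb* (the other laminin alpha chain), *PH4alphaEFB* and *Plod*, which hydroxylate collagen, or *Tango1*, which acts in collagen export, nor at *Ilk* and *stck*, which form an adhesion complex with parvin. The most significant peaks at *parvin* itself, in 3 libraries, lay nearest to starts of neighbouring genes. Among integrin subunits of the wider set, *scb*, *ItgaPS4* and *Itgbn* had no listed peak. At *if* a peak was listed in mock replicate 2 only, the most significant one nearest to the start of *mRpL22*.

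Motifs other than GAGAG were read in the same windows of 300 bp around the 18 starts of the 10 genes, on both strands. TCAGT, the core of the initiator, was found at 12 of 18 starts and at 51.2% of all starts. TATAAA, the TATA box, was found at 2 of 18 and at 41.4% of all starts. GATAAG, a form of the GATA element bound by the hemocyte factor Serpent, was found at 3 of 18 (*LanA*, *LanB2* and *mys*) and at 17.7% of all starts. TATCGATA, bound by DREF, was found at 1 of 18 (*mew*) and at 6.77%, and TGANTCA, the AP-1 element, at 0 of 18 and at 6.37%. A match is a description of letters in a window, and none was tested.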

How the data were processed

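CDK9 ChIP-seq was made in 4 libraries with 4 inputs, which enter only through the background of the peak caller. Per the submitters' processing notes, reads were trimmed with cutadapt 1.10, aligned to dm6 with Bowtie2, cleared of duplicates with Picard 2.11.0, and peaks were called with MACS2 2.1.1.20160309. Peaks were called for each replicate alone, so the length of a list can depend on depth. Mock replicate 1, the deepest library by its genome background, listed 3103 peaks at a median fold of 3.75. Mock replicate 2 listed 3804 peaks at a median fold of 4.70. What set the length of each list was not tested. MACS2 settings for CDK9 are not given in the sources used here. The deposited fold enrichment is the ratio of summit reads to local background, and the deposited significance is a p-value and a q-value, both as −log10, the q-value with a lowest −log10 between 1.31 and 1.38. The deposited score is derived from the latter and was not used. The last deposited column, the summit position within the peak, was used.

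Whole summit reads and background were recovered from the fold, whose reads and background each carry a pseudocount of 1, and from the Poisson p-value, for up to 599 reads and within 0.0005 of −log10 p, for 100% of peaks in each list. The lowest background of a list was taken as its depth. It rests on between 44 and 92 peaks.

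Genes and 23697 starts came from Ensembl release 115 for the same assembly, without transposable elements, and sequences from the RefSeq copy of that assembly. Peaks overlapping by 1 bp were merged into regions. Groups were compared by exact permutation over libraries and, for the 1022 shared regions, by limma 3.58.1 with Benjamini-Hochberg adjustment, tested on simulated data. Python 3.11.15 and R 4.3.3 were used. All 10 members were named, with up to 8 genes of the wider list, those with a peak in all libraries. Other list genes were named after their values were seen. The members and lists were chosen with earlier results of these data known. Of 4 germ line markers 3 matched the annotation by name. p-values measure only the spread between these libraries.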

Additional observations from a re-analysis of the deposited data

How the results depend on the processing

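The smallest exact p is 0.333 here, so only directions are given. Fewer member genes, peaks and bases in siAGO2 cells kept their direction at −log10 q of at least 2, with a window of 500 bp, with the gene body only and without each library. When every list was shortened to its 1707 top peaks, so that all were equally long, the difference in member genes turned from -2 to 1 and that in member peaks moved from -2 to 0, while that in bases was -228 in place of -657.5 bp. Without each library in turn the difference lay between -3 and -1 for genes (without siAGO2 replicates 2 and 1) and for peaks and between -1215 and -100 bp for bases (without mock replicates 1 and 2). Member regions called in all 4 libraries numbered 3 with an overlap of 50% of both peaks, with the 1707 top peaks of each list and at −log10 q of at least 2. This count was not run with a window of 500 bp or with the gene body only. The region upstream of *mys* does not reach the gene body, so it counts only through the window around the start.

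Deviations of the rank scores from the group mean were not correlated between libraries of the same replicate number (r = 0.00127 over 1022 regions). This check cannot tell whether the replicates were prepared as pairs. With the replicate block the differences were -2 genes, -2 peaks and -657.5 bp (exact sign-flip permutation, smallest possible p = 0.5). In limma 2 regions passed adjustment with the replicate block against 0 without it, neither of them a member region. All other fits called 0 regions. At *trol* the difference turned to 0.14 for log2 summit reads over genome background, to 0.05 without mock replicate 1 and to 0.15 without siAGO2 replicate 1, and was -0.35 without siAGO2 replicate 2 (cause not tested). The differences at *LanA* and upstream of *mys* kept their sign under every alternative, and their adjusted p in limma lay between 0.426 and 0.999 for *LanA* and between 0.833 and 1.0 for *mys*.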
